A study of Homo sapiens with 6 samples.

Results

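The genes described here are MT-CO1, MT-CO2 and MT-CO3, the 3 mitochondrial DNA (mtDNA) genes for subunits of cytochrome c oxidase. They were chosen by name and position, as the rows on chromosome MT whose identifiers (ENSG00000198804, ENSG00000198712 and ENSG00000198938) carry these symbols, and they are 3 of the 57500 genes in each count table. The tables also hold the 10 other mtDNA protein genes and 22 mtDNA transfer RNA genes. RNA was measured in mitochondria isolated with a kit from HepG2 cells, a human liver carcinoma line labelled wild type, after 48 h with DMSO alone (0 µM, the control), 10 µM GenX or 100 µM GenX. GenX is a short-chain perfluoroalkyl substance. Each dose had 2 libraries, 6 in all, depleted of ribosomal RNA and counted as reads per gene. The labels put all 6 in 1 batch and do not say whether the 2 libraries of a dose came from separate cultures, so p-values measure only the spread between these libraries, which may be technical.

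Cytochrome c oxidase, complex IV, is the last enzyme of the respiratory chain. It passes electrons from cytochrome c to oxygen and pumps protons across the inner mitochondrial membrane. MT-CO1 encodes the subunit that holds the heme and copper site where oxygen is reduced, MT-CO2 the subunit that takes electrons from cytochrome c through its own copper site, and MT-CO3 a core membrane subunit without a redox center. The other subunits are made from nuclear genes and imported. All 3 mtDNA genes are read from the heavy-strand promoter as part of 1 long precursor, from which the mRNAs are released mainly by cutting out the transfer RNAs between them. Liver cells depend on this enzyme for most of their oxidative ATP production.

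The 3 genes lie on the plus strand of mtDNA as single exons in GRCh38, MT-CO1 at MT 5904 to 7445 (1542 bases), MT-CO2 at 7586 to 8269 (684 bases) and MT-CO3 at 9207 to 9990 (784 bases). MT-CO1 and MT-CO2 are separated by the transfer RNA genes MT-TS1, on the opposite strand, and MT-TD. MT-CO3 follows MT-ATP6 with no transfer RNA gene between them and shares 1 base with it, position 9207, and MT-TG starts right after its end. The counts do not give where in a gene the reads fell. The first and last 60 bases of each gene are shown because they bound the stretch over which reads were counted. They are GENCODE v29 transcripts, 5′ to 3′ on the plus strand, with the first codon in capitals in the start stretches and the closing bases in capitals in the end stretches.
MT-CO1 start: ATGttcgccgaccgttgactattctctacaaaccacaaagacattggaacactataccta
MT-CO1 end: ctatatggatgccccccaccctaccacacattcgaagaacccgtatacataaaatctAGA
MT-CO2 start: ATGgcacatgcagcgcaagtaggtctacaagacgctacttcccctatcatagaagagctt
MT-CO2 end: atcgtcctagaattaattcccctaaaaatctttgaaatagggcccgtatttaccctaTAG
MT-CO3 start: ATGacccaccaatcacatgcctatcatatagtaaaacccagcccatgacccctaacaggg
MT-CO3 end: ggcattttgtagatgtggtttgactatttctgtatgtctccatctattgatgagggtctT
MT-CO1 closes on AGA and MT-CO2 on TAG, both after whole codons. MT-CO3 has 261 whole codons and 1 base left over, the T in capitals, which the poly(A) tail completes to a stop codon. GC content was 46.2% for MT-CO1, 46.2% for MT-CO2 and 46.6% for MT-CO3, so the genes hardly differ in base composition.

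The nuclear genome carries inserted copies of these genes, which matters for counting because reads can match both. The tables list 45 copies of MT-CO1, 29 of MT-CO2 and 36 of MT-CO3. MTCO1P12, a pseudogene on chromosome 1 (GRCh38 631074 to 632616, plus strand), differed from MT-CO1 at 20 of 1542 aligned bases (98.7% identity). Of all 100-base windows of MT-CO1, 27.9% occurred unchanged in MTCO1P12, against 2.39% of the windows of MT-CO2 in MTCO2P12 and 4.38% of those of MT-CO3 in MTCO3P12. The 60 aligned bases with the most differences, 3, are shown with the differing bases in capitals, from MT 6207 to 6266 and from chromosome 1, 631377 to 631436.
MT-CO1: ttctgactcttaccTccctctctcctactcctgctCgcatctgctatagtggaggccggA
MTCO1P12: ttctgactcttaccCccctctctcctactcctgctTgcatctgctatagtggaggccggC
MTCO1P12 held 4 and 2 counts with DMSO alone, 0 and 0 with 10 µM GenX, and 210 and 118 with 100 µM GenX. Of the counts on MT-CO1 and this copy together, these were 0.239% and 0.298% in the controls, 0 of 2265 and 0 of 2052 at 10 µM (upper 95% exact binomial limits 0.163% and 0.180%), and 0.801% and 0.835% at 100 µM. The copies of MT-CO2 together took at most 0.852% of the counts on the gene and its copies in any library, and those of MT-CO3 at most 0.402%. How the authors counted reads that match both places is not given in the sources used here, so the level of MT-CO1 relative to the other 2 genes carries that uncertainty.

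Depth and composition differed between doses, which bears on every level given here. Library totals were 240683 and 60854 counts with DMSO alone, 43556 and 29350 with 10 µM GenX, and 2141282 and 1338397 with 100 µM GenX. All mtDNA genes together took 4.35% and 10.4% of the counts with DMSO alone, 43.7% and 61.1% with 10 µM GenX, and 3.58% and 3.32% with 100 µM GenX. The nuclear-retained long RNA MALAT1 accounted for 13.5% and 4.61%, 0.0390% and 0.0443%, and 2.88% and 2.60% in the same order of doses. Of 12 hepatocyte markers, 7 and 7 had a count with DMSO alone, 7 and 2 with 10 µM GenX, and 11 and 10 with 100 µM GenX, and they summed to 0.595% and 1.35%, 0.0436% and 0.0136%, and 1.10% and 1.08% of the counts. Intervals given for shares are 95% exact binomial intervals that cover counting error only.

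MT-CO1 and MT-CO3 were higher at 10 µM than in the controls, and all 3 genes were lower at 100 µM than at 10 µM, while none passed the test at 100 µM against control. The levels are in CPM, a gene's count scaled to the library total. MT-CO1, the catalytic subunit, had 6934 and 11010 CPM with DMSO alone, 52002 and 69915 with 10 µM GenX, and 12143 and 10471 with 100 µM GenX. Both 10 µM libraries lay far above the other 4, whose ranges overlapped between 0 and 100 µM. MT-CO2, which receives electrons from cytochrome c, had 9847 and 17813 CPM with DMSO alone, 24038 and 34787 with 10 µM GenX, and 6206 and 6008 with 100 µM GenX. Its 3 groups did not overlap, with 100 µM lowest and 10 µM highest. Of all genes tested, 10.3% lay higher without overlap at 10 µM than in the controls, 10.1% lower at 100 µM than in the controls and 7.3% lower at 100 µM than at 10 µM. MT-CO3 had 2061 and 5439 CPM with DMSO alone, 25668 and 37717 with 10 µM GenX, and 3423 and 3729 with 100 µM GenX, and both 100 µM libraries fell between the 2 controls.

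**Figure D1:**
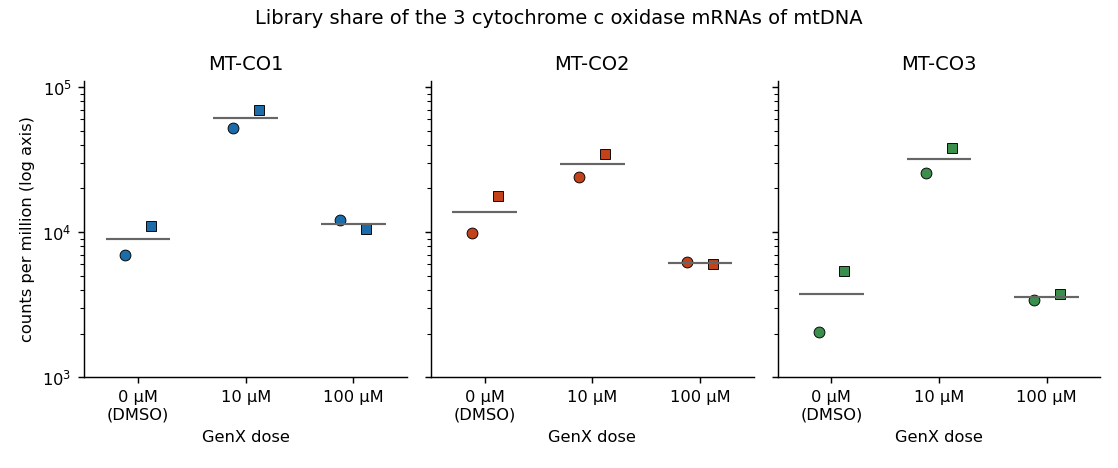
CPM of MT-CO1, MT-CO2 and MT-CO3 on a log axis against GenX dose, with 1 point per library (circle: library 1, square: library 2) and a line at the mean of 2. For each gene both 10 µM points lie above the other 4, and the 100 µM points of MT-CO2, at 6206 and 6008 CPM, lie below its 2 controls.

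At 10 µM against control, 2 of the 3 genes passed edgeR's quasi-likelihood test over all 3180 genes tested, both higher, where 0.22% of all genes tested were called higher (0.597% called in either direction). All 7 genes called higher were mtDNA protein genes, 5 of them among the 10 others, whose log2 fold changes ran from 2.68 to 3.48, so the rise was not particular to these genes. MT-CO1 averaged 60958 ± 12666 CPM at 10 µM and 8972 ± 2882 CPM in the controls (SD, n = 2 each), a log2 fold change of 2.56 ± 0.40 (SE; adjusted p = 0.0286). MT-CO3 averaged 31693 ± 8520 CPM at 10 µM and 3750 ± 2389 CPM in the controls, 2.93 ± 0.54 (adjusted p = 0.0418). MT-CO2 averaged 29413 ± 7601 CPM at 10 µM and 13830 ± 5633 CPM in the controls, 0.89 ± 0.44, and did not pass (adjusted p = 0.195). MT-CO2 passed in DESeq2's Wald test (1.40, adjusted p = 0.0241), with libraries thinned to the shallowest (2.89, adjusted p = 0.0147) and with only the 4 libraries compared in the fit (1.63, adjusted p = 0.0460), and its value was 0.22 without 10 µM library 2. The median over all genes tested was -3.17 on the same scale, 1286 of them without a count at 10 µM. More of these RNAs per mitochondrion or cell, more mitochondria in the preparation and fewer other RNAs are among the readings that cannot be told apart in bulk RNA. The rise stood beside the larger mtDNA share and the lower MALAT1 share at 10 µM given above. It also stood beside even counts per kb over the 13 mtDNA protein genes, the highest 1.73 and 1.48 times the lowest at 10 µM. What part any of these had in the rise was not tested. Both calls ended with library sizes alone (adjusted p = 0.0676 for MT-CO1 and 0.0749 for MT-CO3), under the other settings given in the closing section, and without either 10 µM library, where the log2 fold changes were 1.93 to 2.28 for MT-CO1 and 2.26 to 2.75 for MT-CO3. The MT-CO3 call also ended without 100 µM library 1 (2.89, adjusted p = 0.0545).

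At 100 µM against 10 µM, 3 of 3 genes fell, where 2.11% of all genes tested were called lower. MT-CO1 averaged 11307 ± 1183 CPM at 100 µM and 60958 ± 12666 CPM at 10 µM (SD, n = 2 each), a log2 fold change of -2.78 ± 0.41 (SE; adjusted p = 0.00696). MT-CO2 averaged 6107 ± 140 CPM at 100 µM and 29413 ± 7601 CPM at 10 µM, -2.61 ± 0.46 (adjusted p = 0.0183). MT-CO3 averaged 3576 ± 216 CPM at 100 µM and 31693 ± 8520 CPM at 10 µM, -3.49 ± 0.55 (adjusted p = 0.00892). The 10 other mtDNA protein genes also passed, all lower, with log2 fold changes between -7.67 (MT-ND3) and -3.81 (MT-ND4), each further from 0 than any of these 3, while the median over all genes tested was 3.52. The 3 calls ended without any 1 of the 10 or 100 µM libraries, where the values ran from -2.30 to -1.78 for MT-CO1, -2.06 to -1.55 for MT-CO2 and -2.92 to -2.42 for MT-CO3, and with a filter of at least 5 CPM on average, where they were -0.96, -0.80 and -1.68.

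At 100 µM against control, 0 of the 3 genes passed in edgeR, where 0.0% of all genes tested were called and 575 had an unadjusted p under 0.05. DESeq2's Wald test called 220 genes, or 3 without a filter on low counts. MT-CO1 averaged 11307 ± 1183 CPM at 100 µM and 8972 ± 2882 CPM in the controls (SD, n = 2 each), a log2 fold change of -0.22 ± 0.38 (SE; adjusted p = 0.784) that turned to 0.33 with library sizes alone and to between 0.08 and 0.53 without any 1 library. MT-CO2 averaged 6107 ± 140 CPM at 100 µM and 13830 ± 5633 CPM in the controls, -1.72 ± 0.45 (adjusted p = 0.204 and unadjusted p = 0.00297, from edgeR's test across all genes). MT-CO2 passed as lower in DESeq2's Wald test (-2.19, adjusted p = 0.000429), without control 2 (-1.31, adjusted p = 0.0304) and with the replicate number as a block (-1.70, adjusted p = 0.0361), but not in DESeq2 without a filter. MT-CO3 averaged 3576 ± 216 CPM at 100 µM and 3750 ± 2389 CPM in the controls, -0.56 ± 0.50 (adjusted p = 0.566), and turned to 0.17 without control 2, 0.04 without 100 µM library 1 and 0.03 without 100 µM library 2.

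**Figure D2:**
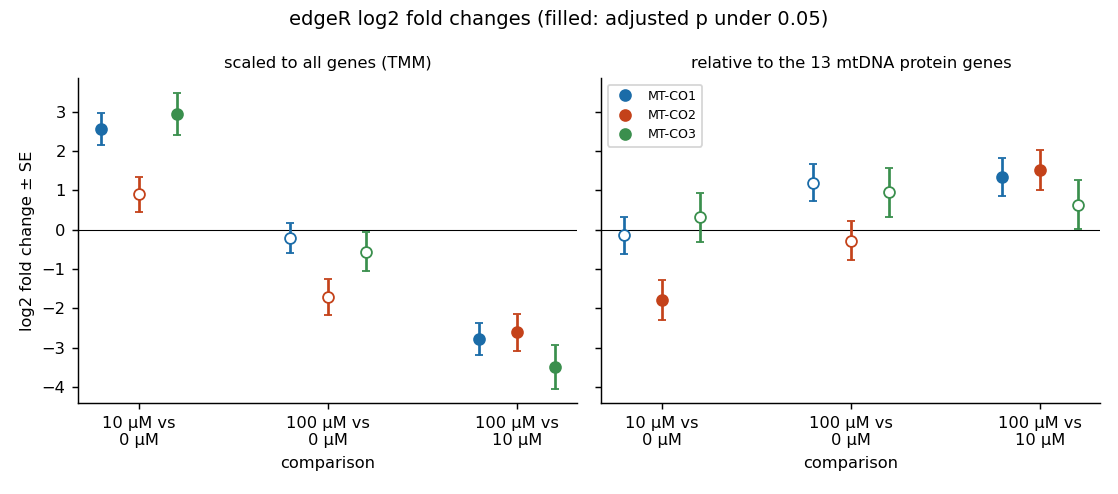
edgeR log2 fold changes with their SEs for the 3 genes in the 3 comparisons, scaled to all genes on the left and relative to the counts on the 13 mtDNA protein genes on the right, with filled points where the adjusted p was under 0.05. On the left the 3 values lie at 0.89 to 2.93 for 10 µM against control and at -3.49 to -2.61 for 100 against 10 µM, and on the right only MT-CO2 of the 3 passes at 10 µM against control, at -1.79.

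Per kilobase of gene, the order of the 3 genes against the other mtDNA genes differed between doses. MT-CO2 had 3465 and 1585 counts per kb with DMSO alone, 1531 and 1493 with 10 µM GenX, and 19427 and 11756 with 100 µM GenX. It held the highest level per kb of the 13 mtDNA protein genes in both controls and both 100 µM libraries, and ranked 6 and 5 at 10 µM. MT-CO1 had 1082 and 435 counts per kb with DMSO alone, 1469 and 1331 with 10 µM GenX, and 16863 and 9088 with 100 µM GenX. Its ranks were 2 and 6, then 7 and 8, then 2 and 2. MT-CO3 had 633 and 422 counts per kb with DMSO alone, 1426 and 1412 with 10 µM GenX, and 9349 and 6366 with 100 µM GenX, with ranks 6 and 7, 8 and 6, and 3 and 3. The 3 cytochrome c oxidase mRNAs were thus the 3 most counted per kb in both 100 µM libraries and lay in the middle of the 13 in both 10 µM libraries. MT-ND4, a complex I gene, ranked 4 in both 100 µM libraries, with 9101 and 5265 counts per kb, close to MT-CO3 in library 1. Its share of the counts on the 13 genes was 12.4% and 12.6% with DMSO alone, 13.3% and 13.8% at 10 µM, and 16.8% and 16.9% at 100 µM.

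Together the 3 genes held 1507 and 693 counts per kb in the controls beside 596 and 418 for the 10 other mtDNA protein genes, a ratio of 2.53 and 1.66. At 10 µM they held 1472 and 1389 beside 1463 and 1366, a ratio of 1.01 and 1.02. At 100 µM they held 15488 and 8985 beside 3350 and 1906, a ratio of 4.62 and 4.71. The ratio was near 1 in both 10 µM libraries, and the 3 groups did not overlap.

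**Figure D3:**
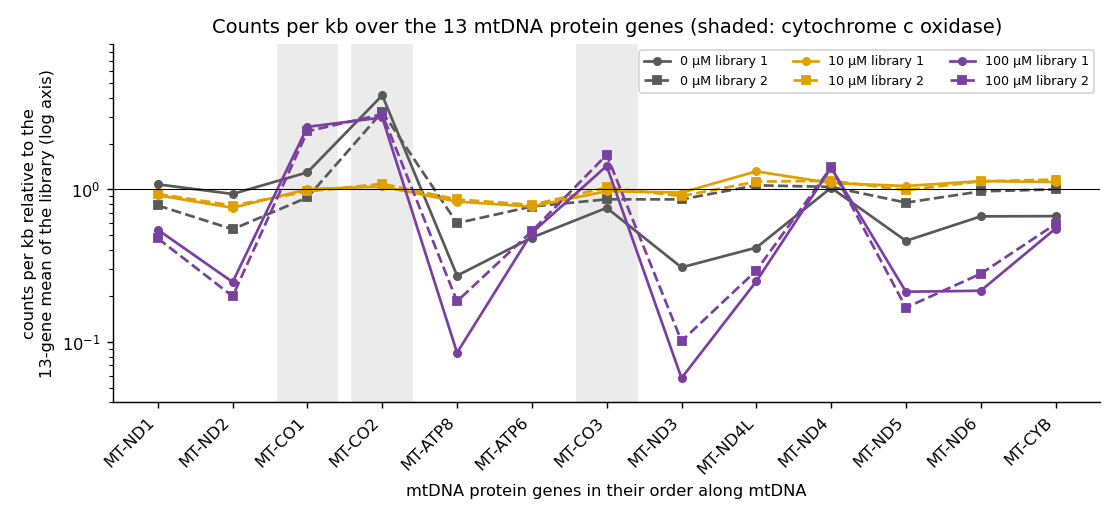
Counts per kb of the 13 mtDNA protein genes in their order along mtDNA, each divided by the 13-gene mean of its library, on a log axis, with 1 line per library and the 3 cytochrome c oxidase genes shaded. The 10 µM lines stay near 1 over the shaded genes (0.970 to 1.09), the 100 µM lines reach 2.41 to 2.57 at MT-CO1 and 2.96 to 3.11 at MT-CO2, and the control lines stand at 4.14 and 3.23 at MT-CO2.

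The share of the counts on the 13 mtDNA protein genes leaves the rest of the library out of its denominator. Whether the shares varied with how much of a library mtDNA took was not tested. All 3 genes together took 47.6% (interval 46.6 to 48.6) and 37.3% (36.0 to 38.6) of the counts on the 13 genes with DMSO alone. Their part was 26.5% (25.9 to 27.2) and 26.7% (26.0 to 27.4) with 10 µM GenX. With 100 µM GenX it was 62.4% (62.1 to 62.8) and 62.9% (62.4 to 63.3). MT-CO3 took 5.20% (4.77 to 5.67) and 5.92% (5.31 to 6.57) with DMSO alone, 6.70% (6.32 to 7.09) and 7.08% (6.68 to 7.49) with 10 µM GenX, and 9.81% (9.60 to 10.03) and 11.6% (11.3 to 11.9) with 100 µM GenX, so its share was lowest in the controls and highest at 100 µM with no overlap. MT-CO1 took 17.5% (16.8 to 18.3) and 11.98% (11.1 to 12.9) with DMSO alone, 13.6% (13.05 to 14.1) and 13.1% (12.6 to 13.7) with 10 µM GenX, and 34.8% (34.5 to 35.1) and 32.6% (32.1 to 33.0) with 100 µM GenX. Both 100 µM libraries stood well above the other 4. MT-CO2 took 24.9% (24.0 to 25.7) and 19.4% (18.4 to 20.4) with DMSO alone, 6.27% (5.91 to 6.65) and 6.53% (6.15 to 6.93) with 10 µM GenX, and 17.8% (17.5 to 18.1) and 18.7% (18.3 to 19.1) with 100 µM GenX, the 10 µM libraries being far the lowest. The mean share of MT-CO1 was 33.7% ± 1.58 at 100 µM and 14.7% ± 3.91 in the controls (SD, n = 2 each), and 13.3% ± 0.31 at 10 µM lay within the range of the controls. For MT-CO2 the mean share was 6.40% ± 0.18 at 10 µM and 22.1% ± 3.88 in the controls, and at 100 µM it was 18.2% ± 0.64. Of the 12 comparisons of shares made (3 genes and their sum in 3 pairs of doses), 11 had groups that did not overlap, and the exact permutation test, two-sided, gave p = 0.333 for each (0.364 adjusted over the 12), the smallest that 2 against 2 libraries can give, and MT-CO1 at 10 µM against control had p = 1.0. The 12 are not separate results, as the sum repeats the 3 genes and the pairs of doses share libraries. How many of all genes do not overlap on this scale was not computed, so the count of 11 has no background.

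**Figure D4:**
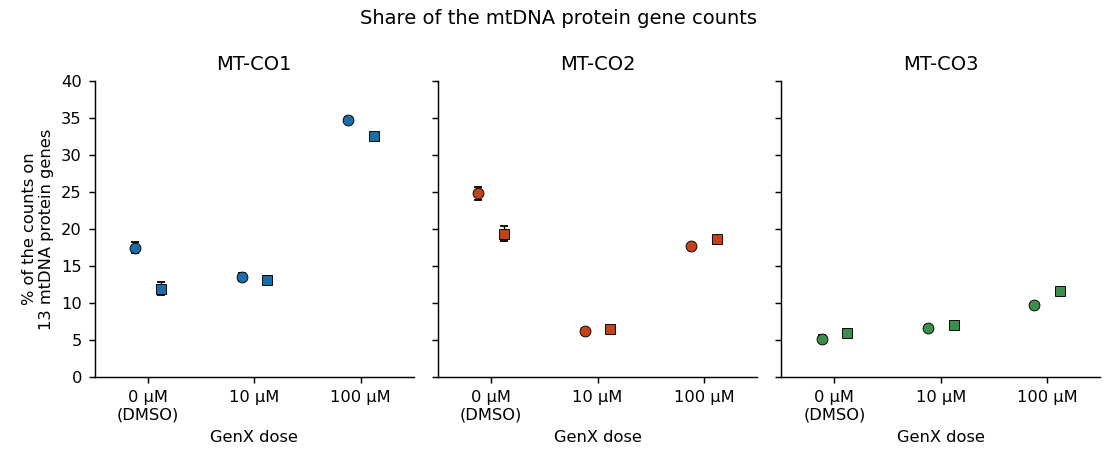
Percentage of the counts on the 13 mtDNA protein genes taken by each gene against GenX dose, with 1 point per library (circle: library 1, square: library 2) and 95% exact binomial intervals. MT-CO1 averages 33.7% at 100 µM, MT-CO2 averages 6.40% at 10 µM, and the 2 controls of MT-CO1 and MT-CO2 lie further apart than the 2 libraries of either GenX dose.

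edgeR's test across all genes, with the counts on these 13 genes as the library size, gave 1 of 3 called at 10 µM against control. MT-CO2 was lower by this measure, with a log2 fold change of -1.79 ± 0.51 (SE, n = 2 per group; adjusted p = 0.0316, unadjusted p = 0.00483), while MT-CO1 (-0.14 ± 0.47, adjusted p = 0.823) and MT-CO3 (0.31 ± 0.61, adjusted p = 0.699) did not pass. On this scale 38.9% of all genes tested were called lower, so 1 call of 3 is near the background of all genes. Of the 13 mtDNA protein genes, MT-CO2 was the only 1 called lower, and 0 were called higher. The MT-CO2 value ran from -1.96 to -1.60 with any 1 library left out. Its adjusted p rose to between 0.134 and 0.226 without any 1 of the 4 GenX libraries, to 0.0870 in DESeq2's Wald test, to 0.840 without a filter on low counts and to 0.0510 with the replicate number as a block.

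On the same scale at 100 against 10 µM, MT-CO1 (1.34 ± 0.47, adjusted p = 0.0252) and MT-CO2 (1.51 ± 0.51, adjusted p = 0.0205) were higher, 2 of 3, where 75.1% of all genes tested were called higher. Against that share of all genes the count of 2 says nothing particular. Of the 13 mtDNA protein genes, only these 2 were called higher, and 4 were called lower (MT-ND2, MT-ND3, MT-ND5 and MT-ND6). MT-CO3 had 0.64 ± 0.61 (adjusted p = 0.346), and passed without control 1 (adjusted p = 0.0155) and with only the 4 libraries of both doses in the fit (0.0426). With the 10 other mtDNA protein genes alone as the denominator, the values were 2.31 for MT-CO1, 2.48 for MT-CO2 and 1.61 for MT-CO3, the last with adjusted p = 0.0610. Both calls ended without any 1 of the 10 or 100 µM libraries (adjusted p between 0.124 and 0.201 for the 2 genes), in DESeq2's Wald test (0.167 and 0.112) and without a filter on low counts (0.556 and 0.527). At 100 µM against control 0 of 3 passed, where 0.0% of all genes tested were called and 803 had an unadjusted p under 0.05. MT-CO1 had 1.19 ± 0.47 (adjusted p = 0.167), MT-CO2 -0.28 ± 0.50 (0.762) and MT-CO3 0.94 ± 0.62 (0.347). Without control 1, MT-CO1 (1.49, adjusted p = 3.01e-09) and MT-CO3 (0.86, adjusted p = 0.0202) passed.

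Ratios among the 3 genes within a library need no scaling at all. In counts per kb, MT-CO2 stood to MT-CO1 as 3.20 (95% interval 3.01 to 3.41) and 3.65 (3.31 to 4.02) with DMSO alone, 1.04 (0.968 to 1.12) and 1.12 (1.04 to 1.21) with 10 µM GenX, and 1.15 (1.13 to 1.18) and 1.29 (1.26 to 1.33) with 100 µM GenX. Both controls lay above all 4 GenX libraries, whose ratios were close to 1. The difference in log2 units was -1.66 at 10 µM against control and -1.48 at 100 µM against control. With MT-CO1's counts as the library size, edgeR's test across all genes gave adjusted p = 0.0378 at 10 µM (unadjusted p = 0.0111), where 40.3% of all genes tested were called, and 0.228 at 100 µM (unadjusted p = 0.0196), where 0.0% were. The ratio at 100 µM exceeded that at 10 µM by 0.18 ± 0.54 (SE, adjusted p = 0.773), where 65.8% were called.

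Between MT-CO2 and MT-CO3 the ratio was 5.48 (4.97 to 6.05) and 3.75 (3.32 to 4.26) with DMSO alone, 1.07 (0.986 to 1.17) and 1.06 (0.970 to 1.15) with 10 µM GenX, and 2.08 (2.02 to 2.14) and 1.85 (1.78 to 1.91) with 100 µM GenX. The 3 groups did not overlap. The difference was -2.09 log2 units at 10 µM against control (adjusted p = 0.0321 in edgeR's test across all genes with MT-CO3's counts as the library size, where 43.6% of all genes tested were called). It was -1.21 at 100 µM against control (adjusted p = 0.285, 0.0% called) and 0.88 at 100 against 10 µM (adjusted p = 0.150, 70.2% called). The ratio of MT-CO3 to MT-CO1 was 0.585 (0.528 to 0.647) and 0.972 (0.849 to 1.11) with DMSO alone, 0.971 (0.903 to 1.04) and 1.06 (0.985 to 1.14) with 10 µM GenX, and 0.554 (0.540 to 0.569) and 0.700 (0.678 to 0.724) with 100 µM GenX. The 2 controls differed from each other by more than counting error, and their range overlapped that of each GenX dose. Its differences were 0.43 log2 units at 10 µM against control, -0.27 at 100 µM against control and -0.70 at 100 against 10 µM, and none passed (adjusted p = 0.650, 0.829 and 0.354). Of the 9 ratio comparisons, 7 had groups that did not overlap, each with p = 0.333 in the exact two-sided permutation test (0.429 adjusted over the 9), and the other 2 had p = 0.667. The 9 are not separate results, as each ratio follows from the other 2 and the pairs of doses share libraries. No background over all genes was computed for the count of 7.

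**Figure D5:**
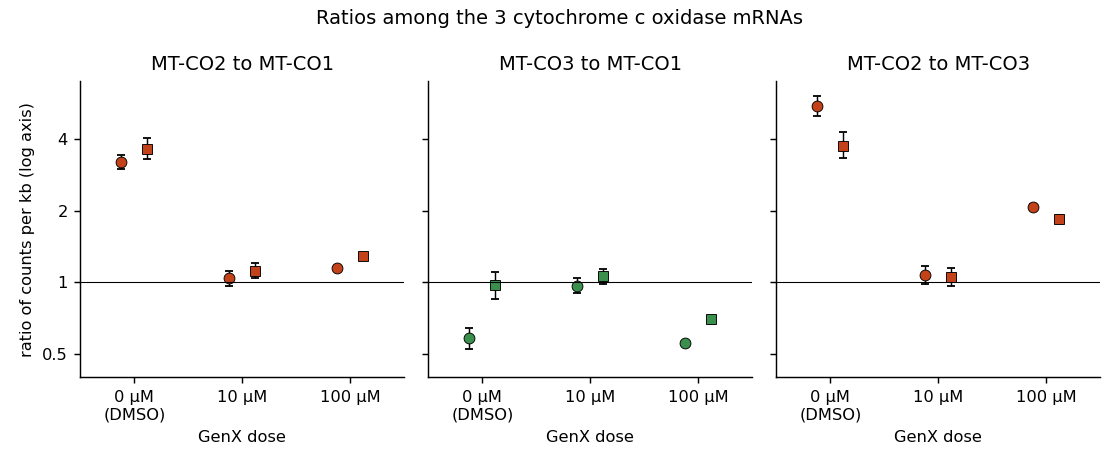
Ratios of counts per kb among the 3 genes on a log axis against GenX dose, with 1 point per library (circle: library 1, square: library 2), 95% intervals from counting and a line at 1. The ratio of MT-CO2 to MT-CO1 is 3.20 and 3.65 in the controls and between 1.04 and 1.29 in the 4 GenX libraries.

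Over all 13 genes, counts per kb were most even in the 10 µM libraries. What part this evenness had in the levels, shares and ratios given above was not tested. The highest of the 13 was 15.3 and 5.90 times the lowest with DMSO alone, 1.73 and 1.48 times with 10 µM GenX, and 51.3 and 30.8 times with 100 µM GenX.

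The genes whose levels ran most like these over the 6 libraries were looked up among 3180 tested genes by Pearson's r of log2 CPM, as a description of 6 points that share their library's mtDNA share and depth. For MT-CO1 they were MT-CO3 (0.987), SYN2, MT-TL1 (0.980), ARHGAP39 and OLIG2, and for MT-CO3 they were MT-ND4 (0.990), MT-CO1 (0.987), KIF7, CDH22 and GRM4. For MT-CO2 they were the transfer RNA gene MT-TK (0.997), UBBP1, MT-TM (0.994), SYNGR3 and MT-TV (0.992). The nuclear genes among these held at most 20 counts in any library. On the scale of shares of the 13 genes, MT-ND4, a complex I subunit, was most like MT-CO1 (r = 0.896) and MT-CO3 (0.979), while the highest value for MT-CO2 was 0.460, with MT-CO1.

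The nuclear genes for the other subunits of the enzyme were counted far less. The 12 subunit genes listed summed to 509 and 213 counts with DMSO alone, 1 and 7 with 10 µM GenX, and 9760 and 6283 with 100 µM GenX. The mtDNA genes held 8.91 (8.13 to 9.78) and 9.79 (8.50 to 11.3) times these counts in the controls, and 4.78 (4.67 to 4.88) and 4.30 (4.19 to 4.43) times at 100 µM. At 10 µM the ratio was 4430 in library 1, where 1 nuclear count gives an interval from 795 upward, and 597 (290 to 1486) in library 2. All 12 were tested, and on the all-gene scale edgeR called 0 in any of the 3 comparisons, where 0.597%, 0.0% and 2.86% of all genes tested were called at 10 µM against control, 100 µM against control and 100 against 10 µM. Relative to the counts on the 13 mtDNA protein genes, 8 of the 12 were called lower at 10 µM against control, where 38.9% of all genes tested were, and 12 of 12 higher at 100 against 10 µM, where 75.1% were. On that scale COX4I1, COX6A1 and COX5B had adjusted p = 0.0103, 0.0251 and 0.0444 at 10 µM against control in edgeR, and 0 of the 12 were called at 100 µM against control. On the all-gene scale the median log2 fold change of the 12 at 10 µM against control was -7.22, or -1.39 with the members without a count in a group set to the level of 3 counts over that group, beside -3.17 over all genes tested. At 100 µM against control the median was 1.39 beside 0.36, and at 100 against 10 µM it was 9.60 (2.41 with those bounds) beside 3.52. COX4I1, the subunit through which ATP regulates the enzyme, had 201 and 131 counts with DMSO alone, 0 and 1 with 10 µM GenX, and 1827 and 1711 with 100 µM GenX. COX6A1 had 55 and 52, 0 and 1, and 1779 and 963, and COX5B 28 and 7, 0 and 2, and 1425 and 943. These values stood beside the mtDNA and MALAT1 shares given above, whose part in them was not tested.

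Raw counts of the factors that build the enzyme were highest at 100 µM, where the libraries were deepest. The 29 assembly factors listed summed to 119 and 99 counts with DMSO alone, 13 and 1 with 10 µM GenX, and 2353 and 1873 with 100 µM GenX. These were 0.0494% and 0.163%, 0.0298% and 0.00341%, and 0.110% and 0.140% of the counts in the same order of doses. Both 100 µM shares lay between those of the 2 controls. On the all-gene scale 5 of the 29 were tested and edgeR called 0 in any comparison, beside the shares given for the nuclear subunits. Their median log2 fold change was 1.40 at 100 µM against control. Relative to the 13 genes, 1 of the 5 (PET100) was called lower at 10 µM against control, where 38.9% of all genes tested were, and 4 of the 5 (COX17, COA6, PET100 and OXA1L) higher at 100 against 10 µM, where 75.1% were. SURF1, an assembly factor of MT-CO1, had 9 and 76 counts with DMSO alone, 1 and 0 with 10 µM GenX, and 60 and 34 with 100 µM GenX. PET100 had 53 and 0, 0 and 0, and 369 and 323. OXA1L, which inserts mtDNA-encoded subunits into the inner membrane, had 4 and 4, 7 and 0, and 354 and 157. The 28 genes listed for mtDNA transcription, mRNA processing and translation summed to 136 and 21 counts with DMSO alone, 40 and 2 with 10 µM GenX, and 3269 and 2161 with 100 µM GenX. These were 0.0565% and 0.0345%, 0.0918% and 0.00681%, and 0.153% and 0.161% of the counts in the same order. On the all-gene scale 8 of the 28 were tested and edgeR called 0 in any comparison. Relative to the 13 genes, 1 of the 8 (TUFM) was called lower at 10 µM against control, where 38.9% of all genes tested were, and 5 of the 8 (TFAM, SLIRP, FASTKD5, TUFM and MTIF2) higher at 100 against 10 µM, where 75.1% were. LRPPRC, which stabilises mitochondrial mRNAs and whose loss lowers cytochrome c oxidase, had 3 and 0 counts with DMSO alone, 11 and 0 with 10 µM GenX, and 557 and 375 with 100 µM GenX (log2 fold change 4.27 ± 2.09 at 100 µM against control, adjusted p = 0.307). POLRMT, the mitochondrial RNA polymerase, had 9 and 1, 17 and 0, and 279 and 248, and TBRG4, an RNA-binding protein of mitochondria, 42 and 4, 10 and 0, and 185 and 164. At 3 counts, the limit that a count of 0 allows, a level was 12.5 and 49.3 CPM with DMSO alone, 68.9 and 102 CPM with 10 µM GenX, and 1.40 and 2.24 CPM with 100 µM GenX.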

How the data were processed

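The deposited tables give raw counts of reads per gene, with gene lengths, 1 table per library. Per the submitters' processing notes, FastQC, STAR, featureCounts and DESeq2 were used with GRCh38, and the libraries came from a stranded workflow per the labels, and versions, annotation, strand setting of the counting and the treatment of multiply mapped reads are not given in the sources used here. Symbols came from GENCODE v29, which held 56898 of 57500 identifiers. The members and gene lists were chosen with earlier results of these data known.

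Levels were tested with edgeR 4.0.16 in R 4.3.3 (filterByExpr, TMM, robust quasi-likelihood, all 6 libraries in 1 model, two-sided, Benjamini-Hochberg over 3180 genes, threshold 0.05), and again with the counts on the 13 mtDNA protein genes as library size. Shares and ratios were compared by exact permutation tests (scipy 1.17.1), with exact 95% binomial intervals. Copies were aligned with Biopython 1.88. DESeq2 1.42.0 served as an alternative. The edgeR step was tested on simulated data, with a pass required only at equal depth in every library. A run at the unequal depths of these libraries had no required pass, and its result is not given here. The pass therefore does not show how the test performs at those depths. No pair of replicates agreed within sampling noise over all genes, and each was treated as 1 library. Over the 13 mtDNA protein genes the 10 µM pair did agree within it (chi-square p = 0.0749), and the other pairs did not. Neither result shows whether the libraries came from separate cultures.

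Named genes were the 3 members, other mtDNA protein genes, members of the lists that passed on the all-gene scale or else the 3 with the highest mean CPM (those called on the 13-gene scale are named beside their counts), copies with at least 10 counts, and for likeness the 5 genes with the highest r among those of at least 10 CPM. MTCO2P12 and MTCO3P12, with fewer counts, were named for comparison with MTCO1P12 after their values were seen. Alternatives are given in the closing section. The ratio test in edgeR, TMM without mtDNA genes, a library size without MALAT1, NEAT1 and mtDNA genes, and DESeq2 without a filter were added after seeing the data.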

Additional observations from a re-analysis of the deposited data

How the results depend on the processing

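With 2 libraries a dose, 3180 genes tested and 10 µM libraries of 43556 and 29350 counts, precision is limited by the number of libraries and, for nuclear genes, by depth. The cause of the changes given here was not tested. For the levels of MT-CO1 and MT-CO3 at 10 µM against control, the adjusted p passed the threshold no longer with library sizes alone (log2 fold changes 2.76 and 3.08), with a library size without MALAT1, NEAT1 and mtDNA genes (3.66 and 3.99), in DESeq2 without a filter on low counts (2.81 and 3.19), in edgeR without a filter (1.99 and 2.41) and with a mean of at least 5 CPM (1.83 and 2.26). MT-CO2 passed there in DESeq2 (1.40), with libraries thinned to the shallowest (2.89) and with only the 4 libraries compared (1.63). At 100 against 10 µM, the calls of MT-CO1, MT-CO2 and MT-CO3 ended in DESeq2 without a filter (-3.37, -3.19 and -4.07), in edgeR without a filter (-1.50, -1.34 and -2.22) and with a mean of at least 5 CPM (-0.96, -0.80 and -1.68), and that of MT-CO2 with library sizes alone (-2.27). At 100 µM against control, MT-CO1 turned positive with library sizes alone (0.33), without MALAT1, NEAT1 and mtDNA genes (0.17), without a filter (0.49), with a mean of at least 5 CPM (0.87) and with only 4 libraries (0.057). MT-CO3 turned positive without a filter (0.19) and with a mean of at least 5 CPM (0.57), and MT-CO2 passed in DESeq2 (-2.19). The median over all genes at 10 µM against control was -3.17, and -2.11 without MALAT1, NEAT1 and mtDNA genes in the library size.

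Relative to the 13 mtDNA protein genes, calls ended in DESeq2 and without a filter, at values of 1.34 and 1.34 for MT-CO1 and 1.51 and 1.51 for MT-CO2 at 100 against 10 µM, and of -1.79 and -1.79 for MT-CO2 at 10 µM against control. With the 10 other genes as denominator, MT-CO2 at 100 µM against control turned to 0.32 and MT-CO3 at 10 µM against control to -0.045. MT-CO3 at 100 against 10 µM passed with only 4 libraries (0.64). The ratios of MT-CO2 to MT-CO1 (-1.66) and to MT-CO3 (-2.12) at 10 µM against control passed in edgeR, where the permutation test cannot. This edgeR test of ratios was not repeated in DESeq2, without a filter or with a library left out, so how far its calls hold is not known.

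The samples of a number did not deviate together (correlations over 3180 genes of 0.000363, 0.003134 and -0.02216). The 1286 genes without a count at 10 µM bear on the correlations with that dose. They do not bear on control with 100 µM (0.003134), where control 2 held only 60854 counts. Counting noise could hide a pairing, and these values cannot exclude one. With the replicate block, the level of MT-CO2 was called at 100 µM against control (-1.70). Relative to the 13 genes it no longer passed at 10 µM against control (-1.78). The block gave 73 called genes at 10 µM against control, 22 at 100 µM against control and 137 at 100 against 10 µM.

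Genes called numbered 19 at 10 µM against control, 0 at 100 µM against control and 91 at 100 against 10 µM. At 10 µM against control there were 7 with library sizes alone (0 higher), 1 without MALAT1, NEAT1 and mtDNA genes, 526 in DESeq2, 7 without a filter, 91 with a mean of at least 5 CPM, 82 thinned and 206 with only 4 libraries. At 100 µM against control there were 4 with DESeq2 size factors, 220 in DESeq2 and 3 in DESeq2 without a filter. At 100 against 10 µM there were 159 with library sizes alone, 374 in DESeq2, 503 in DESeq2 without a filter, 3 without a filter, 290 with a mean of at least 5 CPM and 269 with only 4 libraries. Leaving out each library gave 4 to 863, 0 to 215 and 16 to 1278 calls.

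Leaving out each library, the level changes of MT-CO1, MT-CO2 and MT-CO3 ran from 1.93 to 2.5, 0.22 to 0.85 and 2.26 to 2.89 at 10 µM against control, from 0.079 to 0.53, -1.35 to -1.05 and -0.36 to 0.17 at 100 µM against control, and from -2.30 to -1.78, -2.06 to -1.55 and -2.92 to -2.42 at 100 against 10 µM. Relative to the 13 genes they ran from -0.39 to 0.16, -1.96 to -1.60 and 0.22 to 0.40, from 0.94 to 1.49, -0.45 to -0.09 and 0.82 to 1.06, and from 1.29 to 1.38, 1.47 to 1.55 and 0.51 to 0.75 in the same order. The MT-CO1 share at 10 µM minus control ran from -4.17 to 1.36 percentage points, the positive value without control 1. The log2 ratio of MT-CO3 to MT-CO1 at 100 µM against control ran from -0.64 to 0.092, the positive value without control 2. With 1 library left in a group, that library is assumed to vary like the others.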
